A study of Mus musculus with 11 samples.

Results

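Transfer RNA synthetases join each amino acid to its tRNA, and mitochondria use a set of these enzymes of their own. The set of genes described here holds Lars2, the mitochondrial leucyl-tRNA synthetase, and 9 other mitochondrial tRNA synthetase genes (Iars2, Vars2, Rars2, Tars2, Nars2, Hars2, Fars2, Pars2 and Wars2). They were found by gene identifier in the heart count table, where all 10 were present among 22608 genes and all 10 passed the filter on low values that left 11319 genes. Lars2 was chosen by its difference between CD VEH and WT VEH mice, so its values in comparisons that use those mice are given as a description with no test, and the 9 others were taken by name.

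RNA came from heart tissue, labelled ventricle, of 11 male mice aged 8 to 16 weeks. WT mice were C57BL/6 by their label and littermates of the CD (complete deletion) mice, strain WBS-CD, which were kept on a C57BL/6J background and carry a hemizygous deletion that models Williams-Beuren syndrome (WBS), a multisystem disorder with cardiovascular disease. JZL184, which blocks the enzyme that degrades the endocannabinoid 2-arachidonoylglycerol, was given at 8 mg/kg for 10 days. The 4 groups were WT VEH (vehicle, 2 mice), WT JZL184 (3 mice), CD VEH (3 mice) and CD JZL184 (3 mice), and a letter after the group names a mouse as the table does. The GEO treatment label of both vehicle groups reads untreated, while their titles give vehicle.

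Mitochondrial tRNA synthetases are encoded in the nucleus, made in the cytosol and imported. They charge the tRNAs that mitochondrial ribosomes use to make the few proteins encoded by mitochondrial DNA, all of them parts of the respiratory chain and ATP synthase, on which the heart depends for energy. Inherited loss of function of several of these enzymes affects the brain, hearing, ovary or heart muscle.

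Total counts lay between 69660329 and 92251550 per mouse, so that 3 counts, the smallest level taken as measurable, corresponded to 0.0325 to 0.0431 CPM (counts per 1000000 counts of the scaled library), far below every gene of the set. Of the 25 genes of the table between Gtf2i and Fkbp6, the ends of the deletion, 14 were tested and 14 were lower in CD than in WT mice under vehicle (median log2 fold-change -1.01) and under JZL184 (-0.91), as the genotype labels state. The summed level of 7 ventricular cardiomyocyte markers was 31555 to 42520 CPM over all mice, and that of 4 atrial markers 50.5 to 221 CPM. Nearly all of the atrial sum was Nppa, with group means of 95.8 to 180 CPM. Each other atrial marker had group means of at most 1.47 CPM. The share of counts from mitochondrial-genome genes was 39.4 to 41.2% in WT VEH, 36.4 to 40.1% in CD JZL184, 43.5 to 44.7% in CD VEH and 45.0 to 46.6% in WT JZL184. In bulk tissue, fewer cells of a type and less RNA per cell cannot be told apart.

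The genes lie apart in the genome, and the sequences before their starts differ. Lars2 is at chr9:123366927-123462666 on the plus strand (GRCm38, GENCODE release M21), where its principal transcript has 21 exons and 3894 bases. Vars2, the mitochondrial valyl-tRNA synthetase, is at chr17:35655634-35667592 on the minus strand, and Rars2, the mitochondrial arginyl-tRNA synthetase, at chr4:34614957-34660167 on the plus strand. The 250 bases before the start of these genes are shown from RefSeq (GRCm38.p6), for the most abundant member, a member that changed in every comparison and a member that passed in none with all mice, with matches to the core motif of NRF1, a factor known for nuclear genes of mitochondrial function, in capitals. The Lars2 sequence is chr9:123366677-123366926 (plus strand), the Vars2 sequence chr17:35667593-35667842 (minus strand) and the Rars2 sequence chr4:34614707-34614956 (plus strand).
Lars2: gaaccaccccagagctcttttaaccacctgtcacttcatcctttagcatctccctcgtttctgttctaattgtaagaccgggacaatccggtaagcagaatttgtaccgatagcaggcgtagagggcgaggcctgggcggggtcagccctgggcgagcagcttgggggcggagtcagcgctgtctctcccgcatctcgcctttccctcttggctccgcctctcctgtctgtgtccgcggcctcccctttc
Vars2: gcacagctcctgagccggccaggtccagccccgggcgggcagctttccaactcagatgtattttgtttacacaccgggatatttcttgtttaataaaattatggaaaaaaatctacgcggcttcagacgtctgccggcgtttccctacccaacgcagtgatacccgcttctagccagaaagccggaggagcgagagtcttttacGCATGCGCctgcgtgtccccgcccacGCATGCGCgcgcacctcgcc
Rars2: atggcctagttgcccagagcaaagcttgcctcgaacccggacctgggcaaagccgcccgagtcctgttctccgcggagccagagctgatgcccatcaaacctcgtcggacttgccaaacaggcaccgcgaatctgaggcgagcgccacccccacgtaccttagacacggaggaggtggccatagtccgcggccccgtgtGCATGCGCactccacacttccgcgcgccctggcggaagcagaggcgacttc

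The letters GCATGCGC, read on both strands, were found in 2.26% of 32851 promoters of this length. Among the 8 members with a sequence they occurred 2 times before Vars2, 1 time before Rars2 and 1 time before Wars2, and were not in the window of Lars2, Iars2, Tars2, Nars2 or Fars2. Vars2 and Rars2 both carried the letters, and their levels behaved differently in the comparisons given below. The letters of an ETS motif (CCGGAAG, in 6.91% of promoters), a cyclic AMP response element (TGACGTCA, 1.55%) and an ATF4 element (TGATGCAA, 0.791%) were in none of the 8 windows. These motifs were chosen with the sequences in view.

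Lars2 was the gene of the set with the highest level per kilobase of transcript and the widest range over mice. Its level was 1601 CPM in WT VEH mouse C and 620 CPM in WT VEH mouse D. In WT JZL184 mice A, B and D it was 631, 365 and 404 CPM. In CD VEH mice A, C and E it was 367, 337 and 393 CPM, and in CD JZL184 mice A, C and E it was 515, 507 and 526 CPM. WT VEH mouse C thus stood far above the other 10 mice, while the 3 CD JZL184 mice lay close together and above all 3 CD VEH mice.

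In order of the group mean, Lars2 was at 1110 ± 693 CPM in WT VEH (SD, n = 2), 516 ± 9.51 CPM in CD JZL184 (n = 3), 467 ± 144 CPM in WT JZL184 (n = 3) and 366 ± 28.1 CPM in CD VEH (n = 3). The SD of WT VEH was larger than the difference to the next group, and the values of CD JZL184 overlapped those of WT JZL184, which in turn overlapped those of CD VEH. Between the 2 WT VEH mice Lars2 differed by 1.37 on the log2 scale, which ranked 8 by size among 11319 genes, whereas the 9 other members differed by at most 0.21 between them. The range of Lars2 within WT JZL184 was 0.79 on the log2 scale, against a median of 0.23 over all tested genes. Within CD VEH it was 0.22, and within CD JZL184 it was 0.05.

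Across all mice the highest level of Lars2 was 4.75 times its lowest, against 1.22 times for Fars2 and 1.56 times for Vars2, the narrowest and widest of the others. The highest was that of WT VEH mouse C, and the other mice ran from 337 to 631 CPM. Per kilobase of principal transcript, Lars2 had a mean level of 146 CPM over the 11 mice. Fars2, the mitochondrial phenylalanyl-tRNA synthetase, followed at 18.7 CPM per kilobase, Iars2 at 16.8, Tars2 at 11.96 and Rars2 at 7.69. Hars2 was at 6.39 CPM per kilobase, Vars2 at 4.12, Nars2 at 3.11, Wars2 at 1.77 and Pars2 at 1.68. The levels per kilobase overlapped over mice between Fars2 and Iars2, between Rars2 and Hars2, between Vars2 and Nars2, and between Wars2 and Pars2, but not between the other neighbours in this order.

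**Figure D1:**
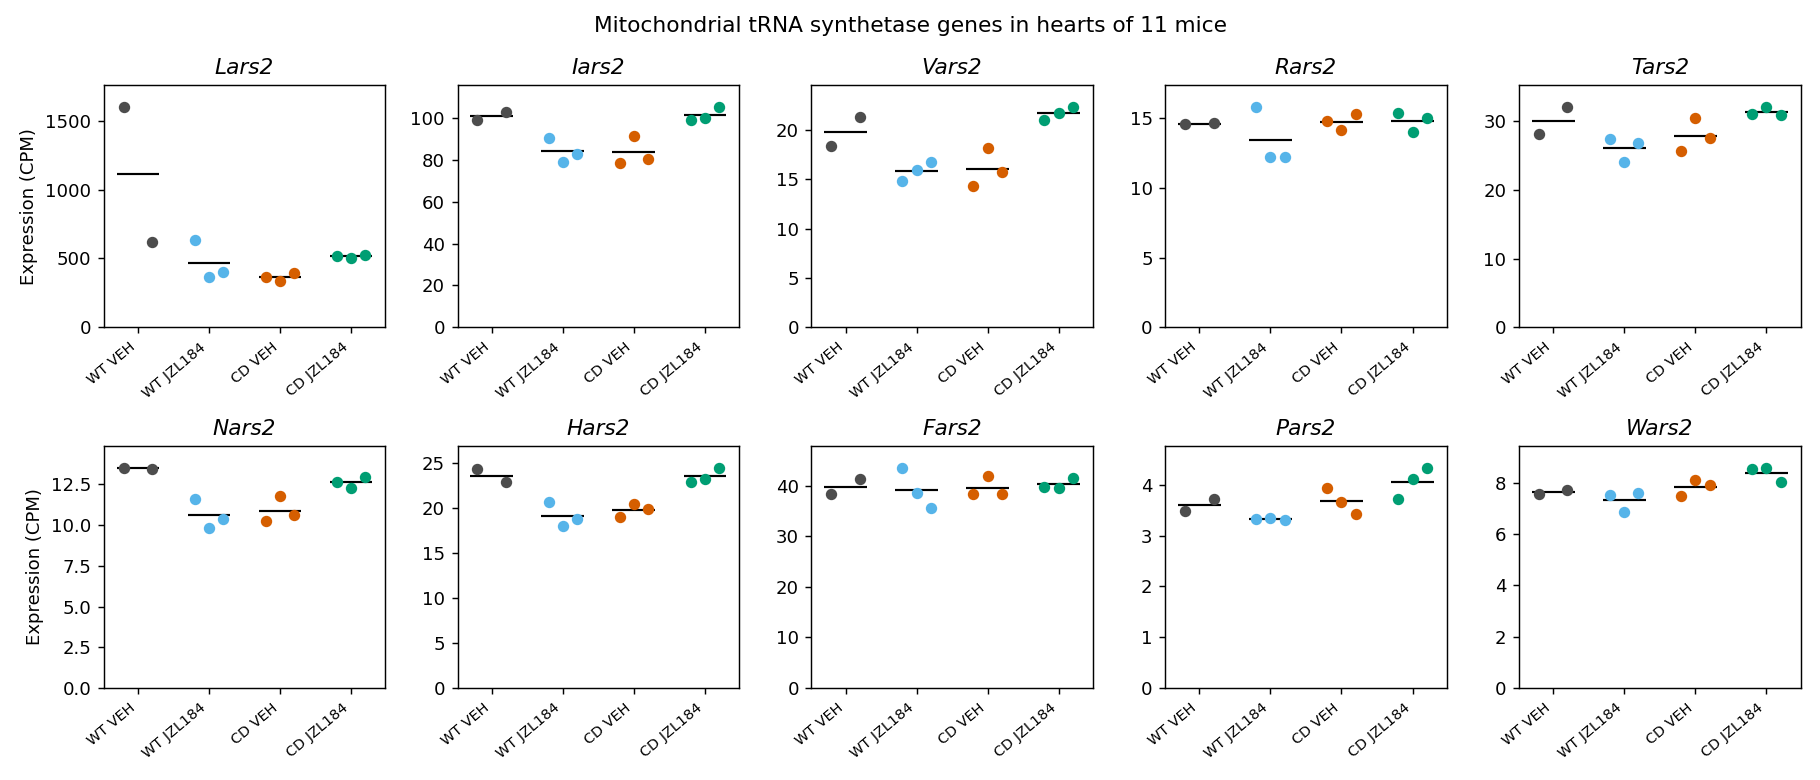
Level in CPM of the 10 genes in each mouse (points) by group, with the group mean as a line; each panel has its own axis from 0. WT VEH mouse C had 1601 CPM of Lars2, while Iars2, Vars2, Nars2 and Hars2 were higher in every WT VEH and CD JZL184 mouse than in every WT JZL184 and CD VEH mouse.

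Part of the Lars2 transcript occurs elsewhere. Of its 3864 stretches of 31 bases, 42 (1.09%), between bases 3172 and 3329, also occur in the transcripts AA474408 and Gm15564 on the same strand. This stretch lies in exon 21, the last exon, after the stop codon, which ends at base 2908. Neither transcript is a row of the count table. Iars2 shared 36.8% of its stretches with Rab3gap2 on the opposite strand, Nars2 6.78% with C230038L03Rik, Hars2 5.2% mostly with Hars, Vars2 4.89% with Gm20483, Fars2 4.06% with Lyrm4 and Wars2 2.12% with repeats. Rars2, Tars2 and Pars2 shared none. Reads within stretches shared on the same strand, as in Lars2, cannot be told apart between the genes by strand. For stretches shared on opposite strands, whether the counting used strand is not given in the sources used here. The part of shared stretches in the results was not tested.

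Iars2, Vars2, Nars2 and Hars2 had similar patterns over the 4 groups. Iars2, the mitochondrial isoleucyl-tRNA synthetase (chr1:185284726-185329396, minus strand), was at 99.3 and 102.9 CPM in WT VEH mice C and D. Its level was 90.3, 79.0 and 83.1 CPM in WT JZL184 mice A, B and D, 78.7, 91.6 and 80.6 CPM in CD VEH mice A, C and E, and 99.2, 99.8 and 105.3 CPM in CD JZL184 mice A, C and E. WT VEH and CD JZL184 mice were thus on 1 level and CD VEH and WT JZL184 mice on a lower one, with no overlap between the levels.

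Vars2 had 18.4 and 21.3 CPM in WT VEH, next to 14.8, 15.9 and 16.7 CPM in WT JZL184. The CD VEH mice had 14.3, 18.2 and 15.7 CPM, and the CD JZL184 mice were at 21.01, 21.8 and 22.3 CPM. Its highest CD VEH mouse lay just under its lowest WT VEH mouse.

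Nars2, the mitochondrial asparaginyl-tRNA synthetase (chr7:96951505-97064758, plus strand), had 13.5 CPM in both WT VEH mice, next to 11.6, 9.85 and 10.4 CPM in the WT JZL184 mice. The CD VEH mice had 10.2, 11.8 and 10.6 CPM, and the CD JZL184 mice were at 12.7, 12.3 and 13.0 CPM. The CD JZL184 mice were above all CD VEH and WT JZL184 mice and below both WT VEH mice.

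Hars2, the mitochondrial histidyl-tRNA synthetase (chr18:36783008-36792562, plus strand), was at 24.3 and 22.9 CPM in WT VEH and at 20.6, 18.0 and 18.7 CPM in WT JZL184. It was at 19.0, 20.4 and 19.9 CPM in CD VEH and at 22.9, 23.3 and 24.5 CPM in CD JZL184. Again the WT VEH and CD JZL184 mice overlapped each other and lay above the rest.

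The 5 remaining genes were Tars2, Pars2, Wars2, Rars2 and Fars2. Tars2, the mitochondrial threonyl-tRNA synthetase (chr3:95739976-95760206, minus strand), was at 28.1 and 32.0 CPM in WT VEH, 27.3, 24.0 and 26.8 CPM in WT JZL184, 25.6, 30.5 and 27.5 CPM in CD VEH and 30.96, 32.0 and 30.9 CPM in CD JZL184. Its CD JZL184 mice were above every mouse of CD VEH and WT JZL184, while WT VEH and CD VEH overlapped. Pars2, the mitochondrial prolyl-tRNA synthetase (chr4:106651069-106655282, plus strand), was at 3.49 and 3.72 CPM in WT VEH, 3.32, 3.35 and 3.31 CPM in WT JZL184, 3.94, 3.66 and 3.42 CPM in CD VEH and 3.71, 4.12 and 4.33 CPM in CD JZL184. Its group means per kilobase were the lowest of the set, and its WT JZL184 mice lay below all others.

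Wars2, the mitochondrial tryptophanyl-tRNA synthetase (chr3:99141068-99239186, plus strand), ranged from 6.84 to 7.60 CPM in WT JZL184 and from 8.02 to 8.58 CPM in CD JZL184. In WT VEH it was at 7.55 and 7.72 CPM, and in CD VEH between 7.47 and 8.12 CPM, so that the vehicle groups overlapped. Rars2 was at 14.6 CPM in both WT VEH mice, 15.8, 12.2 and 12.2 CPM in WT JZL184, 14.8, 14.1 and 15.3 CPM in CD VEH and 15.3, 14.0 and 15.0 CPM in CD JZL184. Fars2 (chr13:36117412-36726280, plus strand) was at 38.3 and 41.3 CPM in WT VEH, 43.5, 38.5 and 35.6 CPM in WT JZL184, 38.3, 41.9 and 38.4 CPM in CD VEH and 39.7, 39.6 and 41.6 CPM in CD JZL184. For both genes the ranges of all groups overlapped, and the widest was that of WT JZL184.

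The comparison of CD VEH with WT VEH asks what the deletion changes in the heart. Iars2, Vars2, Nars2 and Hars2 were lower in CD VEH mice, by 0.25 to 0.31 on the log2 scale. In edgeR's quasi-likelihood test, adjusted by Benjamini-Hochberg over all tested genes, the log2 fold-change of Iars2 was -0.27 (SE 0.08, adjusted p = 0.0243), that of Vars2 -0.30 (SE 0.10, adjusted p = 0.0387), that of Nars2 -0.31 (SE 0.08, adjusted p = 0.0175) and that of Hars2 -0.25 (SE 0.07, adjusted p = 0.0217). These 4 of the 9 tested members fell, where 15.4% of all tested genes fell and 15.0% rose. Tars2 (-0.11), Rars2 (0.01), Fars2 (-0.01), Pars2 (0.02) and Wars2 (0.04) did not pass, and the median of the 9 was -0.11 against 0.0087 over all tested genes. For Lars2 the log2 fold-change was -1.60 (SE 0.31), and without WT VEH mouse C it was -0.76. Leaving out CD VEH mouse A, WT VEH mouse C or WT VEH mouse D left 0 of the 9 past the adjusted threshold in edgeR (4, 4 and 3 at an unadjusted p under 0.05), and leaving out CD VEH mouse E left 1. DESeq2 called 4 on all mice, and 10 of 18 alternatives lost the call of Vars2.

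The effect of JZL184 in CD mice had the opposite sign. Vars2 was 1.35 times higher in CD JZL184 than in CD VEH mice (log2 fold-change 0.43, SE 0.09, edgeR adjusted p = 0.00529). Iars2 rose by 0.28 (SE 0.07, adjusted p = 0.0131), Hars2 by 0.25 (SE 0.06, adjusted p = 0.0128) and Nars2 by 0.21 (SE 0.07, adjusted p = 0.0423). These 4 of 9 rose, where 16.8% of all tested genes rose and 17.0% fell. Tars2 (0.17, adjusted p = 0.111), Pars2 (0.14), Wars2 (0.10), Fars2 (0.03) and Rars2 (0.00) did not pass, and the median of the 9 was 0.17. Lars2 had a log2 fold-change of 0.49 (SE 0.28), 1.41 times, and of 0.45 to 0.56 with each mouse left out in turn. The CD VEH mice entered the choice of Lars2, so these values are a description. The count of members fell to 1 without CD JZL184 mouse E and to 2 without CD VEH mouse A or E, and 10 of 18 alternatives lost the call of Nars2.

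In WT mice JZL184 went with lower levels of the same 4 genes. Nars2 fell by 0.35 on the log2 scale (SE 0.08, edgeR adjusted p = 0.0113) and Hars2 by 0.30 (SE 0.07, adjusted p = 0.011). Vars2 fell by 0.33 (SE 0.10, adjusted p = 0.0304) and Iars2 by 0.27 (SE 0.08, adjusted p = 0.0279). These 4 of 9 fell, where 14.0% of all tested genes fell and 15.4% rose. The log2 fold-changes of Tars2 (-0.21, adjusted p = 0.0925), Rars2 (-0.12), Pars2 (-0.12), Wars2 (-0.06) and Fars2 (-0.02) did not pass, and the median of the 9 was -0.21. That of Lars2 was -1.25 (SE 0.30) with both WT VEH mice and -0.41 without WT VEH mouse C. Without that mouse 0 of 9 members passed in edgeR (5 at an unadjusted p under 0.05), without WT VEH mouse D 1, without WT JZL184 mouse B 2, and with only these groups in the fit 0 (4 at an unadjusted p under 0.05), while DESeq2 on all mice called 4.

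The vehicle comparison by which Lars2 was chosen holds neither CD JZL184 nor WT JZL184 mice, and Lars2 was tested between these groups, although the gene was named with earlier results of all mice known. Its log2 fold-change was 0.14 (SE 0.28, edgeR adjusted p = 0.7), and the 3 CD JZL184 mice lay within the range of the 3 WT JZL184 mice. The spread behind this SE and p was estimated over all 4 groups, so the vehicle mice by which Lars2 was chosen enter them. The SD of the log2 CPM of Lars2 was 0.97 in WT VEH, against 0.42 in WT JZL184 and 0.03 in CD JZL184. Of the 9 other members 7 rose, where 18.2% of all tested genes rose and 20.1% fell. Vars2 was 1.37 times higher in CD JZL184 mice (log2 fold-change 0.46, SE 0.09, adjusted p = 0.00301), followed by Hars2 (0.30, SE 0.06, adjusted p = 0.00443), Pars2 (0.28, SE 0.10, adjusted p = 0.0351) and Iars2 (0.27, SE 0.07, adjusted p = 0.012). Tars2 rose by 0.26 (SE 0.08, adjusted p = 0.0197), Nars2 by 0.25 (SE 0.07, adjusted p = 0.0199) and Wars2 by 0.19 (SE 0.07, adjusted p = 0.0452). Rars2 (0.14, adjusted p = 0.25) and Fars2 (0.04, adjusted p = 0.704) did not pass, and the median of the 9 was 0.26 against 0.00029 over all tested genes. The count fell to 3 without CD JZL184 mouse E or WT JZL184 mouse B and to 4 without CD JZL184 mouse C, and was 6 with DESeq2 and 5 with upper-quartile factors or with only these groups in the fit. Of 18 alternatives, 12 lost the call of Wars2 and 6 that of Pars2. Without WT JZL184 mouse A the log2 fold-change of Lars2 was 0.42 (adjusted p = 0.242), and Rars2 passed with 0.27 (adjusted p = 0.00674), as it did without that mouse for JZL184 in WT mice (-0.25, adjusted p = 0.0161).

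**Figure D2:**
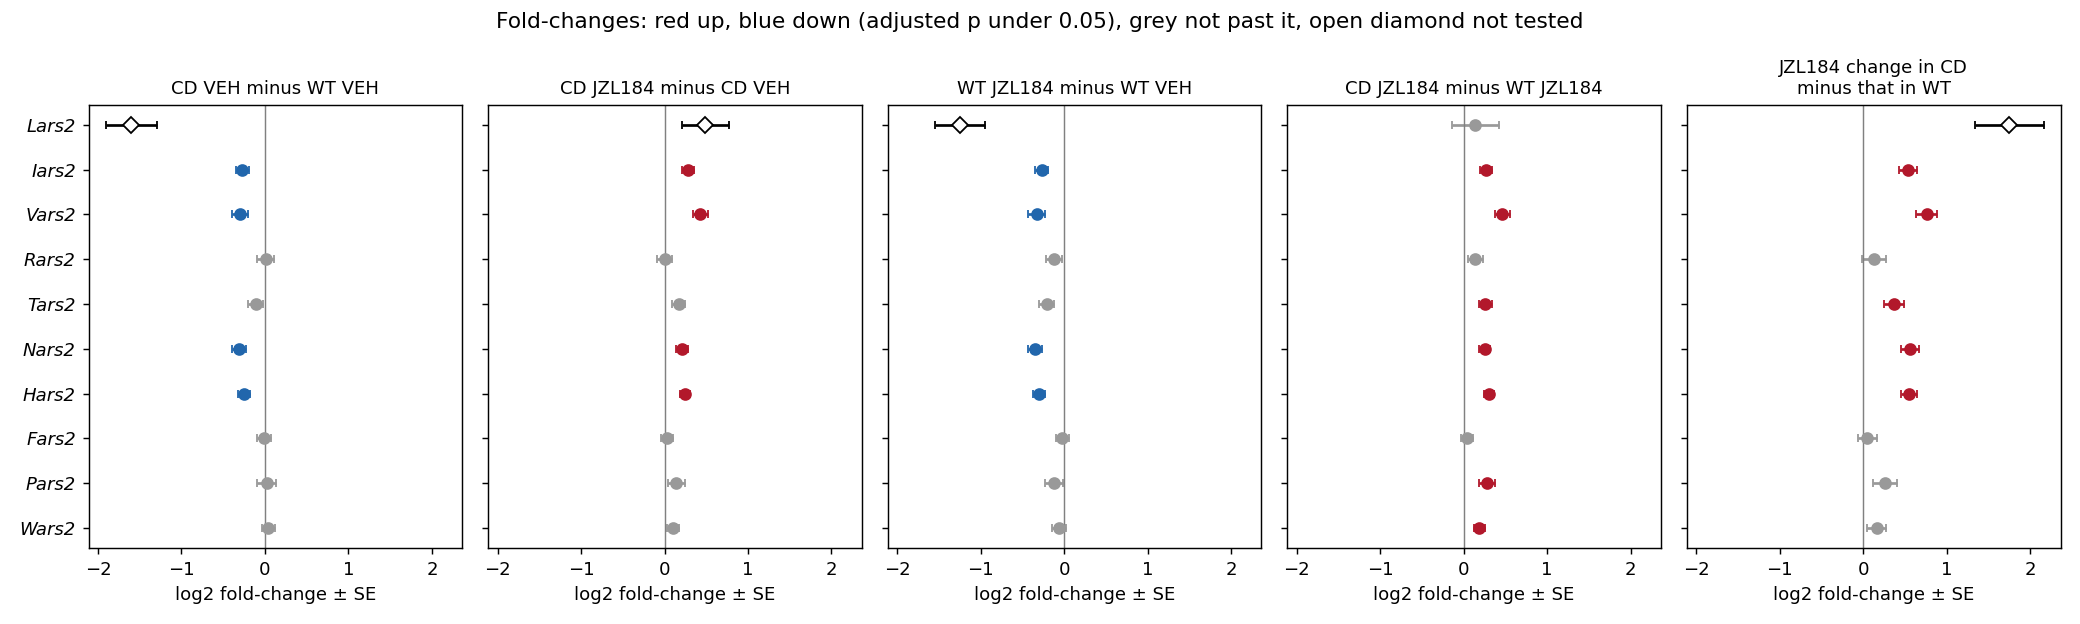
Log2 fold-change with SE of the 10 genes in the 5 comparisons, coloured by the edgeR adjusted p; open diamonds are Lars2 where it was not tested. Iars2, Vars2, Nars2 and Hars2 were to the left of 0 in CD VEH minus WT VEH and in WT JZL184 minus WT VEH and to the right of it in the other panels, with Vars2 at 0.46 between the JZL184 groups.

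The change with JZL184 was also compared between genotypes, as the change in CD mice minus the change in WT mice. This difference was 0.76 for Vars2 (SE 0.13, edgeR adjusted p = 0.000886), 0.56 for Nars2 (SE 0.11, adjusted p = 0.00168), 0.55 for Hars2 (SE 0.10, adjusted p = 0.000797), 0.54 for Iars2 (SE 0.11, adjusted p = 0.00159) and 0.37 for Tars2 (SE 0.12, adjusted p = 0.0186) on the log2 scale. These 5 of 9 passed with a positive difference, where 25.3% of all tested genes passed with a positive and 26.2% with a negative one. Pars2 (0.26, adjusted p = 0.149), Wars2 (0.16), Rars2 (0.13) and Fars2 (0.05) did not pass. For Lars2 the difference was 1.75 (SE 0.41), and 0.91 without WT VEH mouse C. Without WT VEH mouse D the difference for Tars2 was 0.28 and did not pass (edgeR adjusted p = 0.109). The 5 comparisons share mice, so that the same genes passing in several of them are not independent results.

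Within each mouse, Lars2 was set against the mean log2 CPM of the 9 other members. Over the 11 mice Lars2 had a range of 2.25 on the log2 scale, and the 9 others each had a range between 0.29 (Fars2) and 0.64 (Vars2). Lars2 was chosen by its values in the vehicle mice, so that its wide range there is a description. The difference between them was 6.44 in WT VEH mouse C and 5.0 in WT VEH mouse D, 5.17, 4.54 and 4.63 in WT JZL184 mice A, B and D, 4.47, 4.21 and 4.53 in CD VEH mice A, C and E, and 4.74, 4.71 and 4.72 in CD JZL184 mice A, C and E. By group it was 5.72 ± 1.01 in WT VEH (SD, n = 2), 4.78 ± 0.34 in WT JZL184, 4.72 ± 0.02 in CD JZL184 and 4.40 ± 0.17 in CD VEH (n = 3 each). Without WT VEH mouse C the values ran from 4.21 to 5.17, and those of CD JZL184 and CD VEH did not overlap. The log2 CPM of Lars2 itself was 10.64 in WT VEH mouse C and ran from 8.40 to 9.30 in the other mice.

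As a description over the 11 mice, Lars2 had Pearson's r of 0.69 with Nars2, 0.67 with Hars2, 0.56 with Iars2, 0.31 with Rars2, 0.26 with Vars2, 0.21 with Tars2, 0.09 with Fars2, -0.01 with Wars2 and -0.05 with Pars2. The 36 pairs among the 9 others had a median r of 0.56, from 0.11 to 0.96. Without WT VEH mouse C, the values for Lars2 were 0.72 with Nars2, 0.71 with Iars2, 0.69 with Hars2, 0.54 with Fars2, 0.53 with Tars2, 0.50 with Rars2, 0.46 with Vars2, 0.27 with Wars2 and 0.20 with Pars2 over the 10 other mice, with a median of 0.53, beside a median of 0.63 for the 36 pairs of the others. Mice of a group share genotype and treatment, so that these values describe levels over groups as well as mice. Of 11305 genes with a mean of at least 2 CPM, the 8 most like Lars2 were Tia1 (0.93), Uevld (0.93), Rab5a (0.93), Atr (0.91), Spata5 (0.91), Ccdc127 (0.90), Dnajc25 (0.90) and Elmod2 (0.89). Without WT VEH mouse C these 8 had r of 0.81 to 0.90, and 0 of them stayed among the 8 highest. The 4 most opposite were Zfp513 (-0.95), Gps2 (-0.94), Nfkbil1 (-0.94) and Egln2 (-0.93). Without WT VEH mouse C their r was -0.79, -0.86, -0.83 and -0.83, and their ranks were 11053, 11243, 11173 and 11182 of 11305, so that 0 of them stayed among the 4 lowest. Nars2, the most alike of the 9 other members, ranked 845.

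A further 7 mitochondrial synthetase genes outside the set were counted the same way. Between CD VEH and WT VEH, 1 of 7 (14.3%, against 15.4% of all tested genes) fell, Mars2, the methionyl enzyme (-0.36, SE 0.09, edgeR adjusted p = 0.0144). With JZL184 in CD mice 3 of 7 rose (42.9% against 16.8%), Ears2 (0.29), Aars2 (0.34) and Mars2 (0.26), and in WT mice 2 of 7 fell (28.6% against 14.0%), Ears2 (-0.37) and Mars2 (-0.38). Between CD JZL184 and WT JZL184 3 of 7 rose (42.9% against 18.2%). They were Ears2, the glutamyl enzyme (0.53, SE 0.06, edgeR adjusted p = 0.000375), Aars2, the alanyl enzyme (0.41, SE 0.10, adjusted p = 0.0085), and Mars2 (0.28, SE 0.08, adjusted p = 0.0197). The medians of the 7 in these comparisons were -0.16, 0.23, -0.19 and 0.22.

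Among the 18 cytosolic synthetases, which serve the ribosomes of the cytosol, 3 fell between CD VEH and WT VEH, 4 rose with JZL184 in CD mice, 3 fell with JZL184 in WT mice and 5 rose between the JZL184 groups, with medians of -0.10, 0.08, -0.11 and 0.11. These were 16.7, 22.2, 16.7 and 27.8% of the list, against 15.4, 16.8, 14.0 and 18.2% of all tested genes in the same directions, so that the counts of falling genes were near the background. Iars, the cytosolic isoleucyl-tRNA synthetase, had log2 fold-changes of -0.34 (edgeR adjusted p = 0.0224), 0.30 (0.0211) and -0.34 (0.0215) in the first 3 of these comparisons. Yars, the tyrosyl enzyme, had -0.19, 0.20, -0.22 and, between the JZL184 groups, 0.22 (adjusted p = 0.00777). Kars, the lysyl enzyme, which with Gars serves both compartments, rose by 0.22 between WT VEH and CD VEH (edgeR adjusted p = 0.018), opposite to the members that changed. Aimp2, a scaffold of the multisynthetase complex, fell with JZL184 in CD mice (-0.19, adjusted p = 0.0237).

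Genes of other steps of mitochondrial gene expression were counted too. Of 12 mitochondrial translation factors, 2 fell between CD VEH and WT VEH (16.7% against 15.4% of all tested genes), 1 rose with JZL184 in CD mice (8.33% against 16.8%), 3 fell with JZL184 in WT mice (25.0% against 14.0%) and 2 rose between the JZL184 groups (16.7% against 18.2%). For the interaction 6 of 12 passed with a positive difference (50.0% against 25.3%). Gfm2, a mitochondrial ribosome recycling factor, was in the counts of CD VEH against WT VEH and of the JZL184 groups (-0.45, edgeR adjusted p = 0.00345, and 0.30, adjusted p = 0.00539). Of 15 mitochondrial tRNA maturation genes, 2 rose between the JZL184 groups (13.3% against 18.2%), Gtpbp3 (0.21) and Trmu (0.22), both known to modify tRNA wobble bases. Of 11 genes of mitochondrial DNA maintenance, transcription and transcript stability, 4 rose (36.4% against 18.2%) and 2 fell (18.2% against 20.1%) between the JZL184 groups. They included Twnk, the mitochondrial DNA helicase (0.33, adjusted p = 0.00199), Polrmt, the mitochondrial RNA polymerase (0.34, adjusted p = 0.00378), and Slirp, an RNA-binding protein that stabilises mitochondrial transcripts (-0.58, adjusted p = 0.000541). The 3 glutaminyl-tRNA amidotransferase genes, which complete mitochondrial glutaminyl-tRNA, had log2 fold-changes of 0.06 (Gatb), 0.15 (Qrsl1) and -0.05 (Gatc) there.

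Leucine is also a signal to the kinase complex mTORC1, and 12 genes of leucine and mTORC1 sensing were tested. Of these, 4 fell between CD VEH and WT VEH, 5 rose with JZL184 in CD mice, 4 fell with JZL184 in WT mice and 4 rose between the JZL184 groups. These were 33.3, 41.7, 33.3 and 33.3% of the list, against 15.4, 16.8, 14.0 and 18.2% of all tested genes. Rptor, the mTORC1 scaffold, had a log2 fold-change of 0.39 between the JZL184 groups (SE 0.07, edgeR adjusted p = 0.00177), Sesn3, a sestrin, 0.52 (SE 0.12, adjusted p = 0.00793) and Mtor 0.37 (SE 0.09, adjusted p = 0.00796). Of 8 tested targets of the amino acid stress response, 1 rose, Shmt2 (0.34, adjusted p = 0.00246), and 2 fell, Ddit3 (-0.51, adjusted p = 0.00205) and Atf4 (-0.28, adjusted p = 0.00858), between the JZL184 groups. These were 12.5% up against 18.2% of all tested genes and 25.0% down against 20.1%, both near the background.

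**Figure D3:**
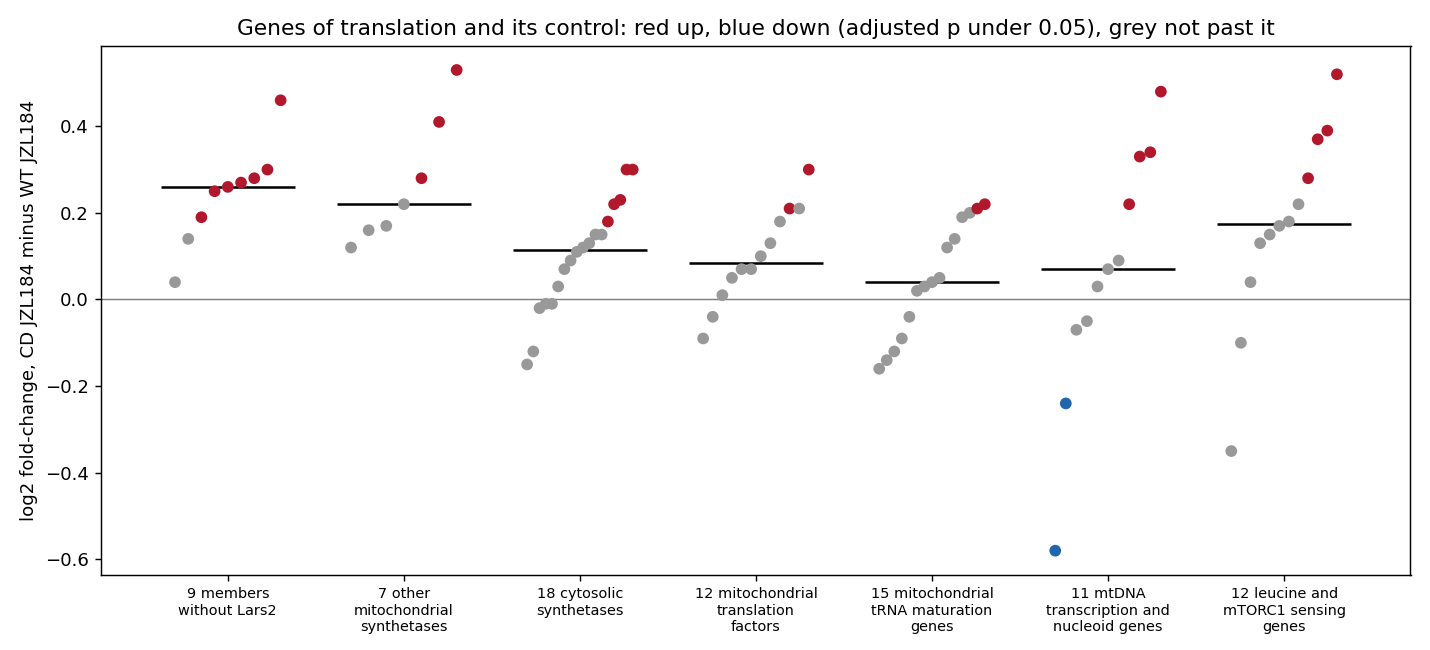
Log2 fold-change of CD JZL184 minus WT JZL184 for each tested gene of 7 lists (points, coloured by edgeR adjusted p), with the median of each list as a line. The medians are 0.26 for the 9 members without Lars2, 0.22 for the 7 other mitochondrial synthetases and 0.11 for the 18 cytosolic synthetases.

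Summed markers of endothelial cells, smooth muscle and pericytes, macrophages and fibroblasts moved over the groups opposite to Iars2, Vars2, Nars2 and Hars2. The summed level of 5 endothelial markers was 523 to 528 CPM in WT VEH and 519 to 602 CPM in CD JZL184, against 678 to 752 CPM in CD VEH and 797 to 834 CPM in WT JZL184. For 5 smooth muscle and pericyte markers it was 577 to 583 and 561 to 575 CPM against 790 to 911 and 830 to 895 CPM in the same order of groups. For 5 macrophage markers it was 99.6 to 101 and 91.1 to 102 CPM against 129 to 156 and 123 to 195 CPM, and for 5 fibroblast markers 563 to 588 and 528 to 581 CPM against 668 to 754 and 726 to 898 CPM. These sums hide single markers, since Rgs5 made up most of the smooth muscle sum (451 CPM in WT VEH) and Dcn most of the fibroblast sum (379 CPM in WT VEH). Between CD VEH and WT VEH 4 of 5 endothelial, 4 of 5 macrophage, 4 of 5 smooth muscle and 2 of 5 fibroblast markers rose. The rest of these markers did not pass, and 15.0% of all tested genes rose. Between CD JZL184 and WT JZL184 all 5 endothelial, 5 macrophage and 5 smooth muscle markers and 3 of 5 fibroblast markers fell, where 20.1% of all tested genes fell. The summed level of 5 red cell markers was 2034 to 2494 CPM in WT VEH, 1419 to 2195 CPM in CD JZL184, 2032 to 18832 CPM in CD VEH and 2643 to 5512 CPM in WT JZL184, and that of 5 adipocyte markers was at most 1.28 CPM in any mouse. The 7 ventricular cardiomyocyte markers summed to 41323 to 42520 CPM in WT VEH and 39843 to 41435 CPM in CD JZL184, against 35889 to 38529 CPM in CD VEH and 31555 to 40601 CPM in WT JZL184, the last overlapping CD JZL184. The single markers did not all go the same way. Between CD VEH and WT VEH 2 of the 7 fell, Myh6, the main cardiac myosin heavy chain of the mouse (-0.44, edgeR adjusted p = 0.0493), and Actc1, cardiac actin (-0.31, adjusted p = 0.043), while Myl2, the ventricular myosin light chain, and Tnni3, cardiac troponin I, had values of 0.25 and 0.24 that did not pass. With JZL184 in CD mice Ryr2, the calcium release channel (0.63), and Myh6 (0.45) rose and Myl2 fell (-0.35, edgeR adjusted p = 0.0165). With JZL184 in WT mice Ryr2 (-0.74) and Myh6 (-0.49) fell. Between the JZL184 groups Ryr2 (0.93) and Myh6 (0.50) rose and Myl2 fell (-0.26, edgeR adjusted p = 0.0484). In each of these 4 comparisons the ventricular cardiomyocyte markers not named as rising or falling did not pass. All 5 red cell markers fell with JZL184 in CD mice, where 17.0% of all tested genes fell. Of the same 5, 0 passed between CD VEH and WT VEH, with JZL184 in WT mice or between the JZL184 groups. The part of these cell types in the results was not tested. The share of mitochondrial-genome counts moved with the groups too, and with those genes and Lars2 left out of the normalization and the test the numbers of members called in the 5 comparisons were 4, 4, 4, 7 and 5, the same as with them.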

How the data were processed

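RNA from the hearts of 11 mice was sequenced, and the authors deposited 1 table of estimated counts, a row per gene, quantified by Salmon (version 0.7.2) against Ensembl transcripts of GRCm38, summarised with tximport and not normalized. Columns with no group numbered 0. For testing, these values were rounded to whole numbers. TMM scaling and the quasi-likelihood test of edgeR 4.0.16 were used, with limma 3.58.1 under R 4.3.3, in 1 model holding a mean for each of 4 groups. Only genes whose log2 CPM averaged 1 or more were tested (11319 of 22608). Log2 CPM values had a prior count of 2, and replicate variation (common BCV) was 9.13%. A gene was called at an adjusted p under 0.05 over all tested genes. P-values set group differences against the spread between separate mice within groups, estimated over all 4 groups together.

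Gene names and positions came from GENCODE mouse release M21, which matched 22238 of 22608 identifiers. Shared sequence was counted over stretches of 31 bases. The 10 members, the gene lists and the markers were chosen with earlier results of these data known. By rule, all 10 members were named, at most 3 genes of each other list by lowest adjusted p in a comparison, and the 8 most and 4 least correlated with Lars2. A planned description beside 20 ribosomal RNA-related genes was not made, since 0 of them were rows of the table. Alternatives were RLE and upper-quartile factors, other filters, fewer groups, each mouse left out, mitochondrial-genome genes left out and DESeq2 1.42.0. In simulated counts for CD JZL184 against WT JZL184, 200 of 11319 genes were changed, by a log2 of 1 or 0.5. Of those changed by 1, 95.9% were recovered, and of those changed by 0.5, 75.7%, with 5.52% of calls false. In the data 18.2% of all tested genes rose and 20.1% fell there, and the members changed by at most 0.46. These rates therefore need not hold for the members.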

Additional observations from a re-analysis of the deposited data

Results flagged for a closer look

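The change with JZL184 differed between CD and WT mice for 5 of the 9 members tested, by a test of the interaction in edgeR. The change in CD mice minus that in WT mice was 0.76 for Vars2, 0.56 for Nars2, 0.55 for Hars2, 0.54 for Iars2 and 0.37 for Tars2 on the log2 scale. The same test called 25.3% of all tested genes in this direction. Each rests on the 2 WT VEH mice as well as on 9 others. Without WT VEH mouse D the difference for Tars2 was 0.28 and did not pass (edgeR adjusted p = 0.109).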

How the results depend on the processing

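No paired analysis was possible because the columns of the table carry no replicate number that the sample labels hold. WT VEH held 2 mice, so that leaving out either assumes that the other varies like the mice of the remaining groups. With each mouse left out in turn, the number of the 9 members called was 0 to 4 between CD VEH and WT VEH, 1 to 5 for JZL184 in CD mice, 0 to 4 for JZL184 in WT mice, 3 to 8 between the JZL184 groups and 4 to 6 for the interaction. With only the compared groups in the fit it was 0 for JZL184 in WT mice (4 at an unadjusted p under 0.05, DESeq2 4). The difference of Lars2 from its family in CD JZL184 was 4.57 with the median of the others and 4.84 with all other mitochondrial synthetases, against 4.72. Lars2 between the JZL184 groups ranged from -0.00 (without WT JZL184 mouse B) to 0.42. Only values that had not passed changed sign. With upper-quartile factors Fars2 was 0.03 (CD VEH against WT VEH), 0.02 (JZL184 in WT) and -0.02 (interaction), and for JZL184 in CD mice Fars2 was -0.00 and Rars2 -0.03. With only the compared groups Rars2 was -0.00 there, and from -0.03 to 0.04 with a mouse left out. With a mouse left out Fars2 ranged from -0.06 to 0.04, from -0.10 to 0.04, from -0.01 to 0.13 and, between the JZL184 groups, from -0.02 to 0.12, while between CD VEH and WT VEH Pars2 ranged from -0.03 to 0.07 and Rars2 from -0.02 to 0.04. Over all alternatives for the 9 members other than Lars2, 701 values kept their direction and side of the threshold, 76 lost the call, 4 gained it and 20 changed sign. The causes were not tested. Likeness without WT VEH mouse C was added after the data were seen.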
